A study of Mus musculus with 2 samples.

Results

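Of 4481 nuclei with enough RNA and open-chromatin counts, 527 (11.8%) were reticular nuclei, and 190 of these 527 (36.0%, exact 95% interval 31.9 to 40.3%) were high in Gm16685, Nrg3, Fgf7 and Tnfsf11. The 190 high nuclei are set here against the 337 reticular nuclei that did not pass the limit on these 4 genes. All came from 1 preparation of tdTomato+ stromal cells of the femur marrow at postnatal day 21, with the genotype Prrx1-cre; R26R(tdTomato/+), profiled with 10X Multiome, which reads RNA and accessible chromatin from the same nucleus. Male and female littermates were pooled in the study's methods, the distal growth plates had been removed, and the cells were freed with enzymes and sorted for tdTomato before the nuclei were taken. Prrx1-cre marks the limb skeletal lineage as a whole, so every nucleus, high or not, carried the same genotype, age and sort. With 1 library of each kind there is no replicate and no test: the intervals given are exact 95% intervals for counting error only, and cells of 1 preparation are not replicates of a condition.

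Reticular cells are the Lepr+ stromal cells that line the marrow sinusoids. They hold haematopoietic stem and progenitor cells in the marrow through the chemokine Cxcl12 and stem cell factor (Kitl), they depend on the transcription factor Ebf3, and they carry a pre-adipocyte-like programme. They also make cytokines that act on other marrow cells: Tnfsf11 (RANKL) drives osteoclast formation, Fgf7 is a growth factor for epithelial and lymphoid cells, and Nrg3 is a neuregulin, a ligand of the ErbB4 receptor. Gm16685 is a long non-coding RNA annotated as antisense, which begins inside Il7 and runs across its start on the opposite strand.

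The nuclei were chosen in 2 steps from values of their own RNA, so the levels of these 8 genes describe the choice and are not a finding. The barcodes had at least 500 non-mitochondrial UMIs (counted RNA molecules) and at least 1000 counts in open-chromatin peaks. Lepr, Cxcl12, Kitl and Ebf3 together had to make up at least 0.4% of non-mitochondrial UMIs with at least 4 UMIs, and Gm16685, Nrg3, Fgf7 and Tnfsf11 together at least 0.1% with at least 2 UMIs. The high nuclei had a median share of 0.246% for the second set (0.101 to 1.77%). Just inside the limit, 15 nuclei at 0.101 to 0.12% held 11 Gm16685, 4 Nrg3, 17 Fgf7 and 21 Tnfsf11 UMIs between them. Just outside it, 27 nuclei at 0.0802 to 0.0991% held 9, 4, 7 and 20 UMIs of the same genes. A further 25 nuclei reached the share with a single UMI and failed on the UMI minimum alone, and 197 of the 337 had none. The limits of the second set were also passed by 201 of the 3954 barcodes that were not reticular (5.08%).

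Depth went with the choice. The high nuclei had a median of 1882 non-mitochondrial UMIs and 969.5 genes, the failing reticular nuclei 1319 UMIs and 650 genes. Peak counts were closer, with medians of 39036 in high nuclei and 34908 in failing nuclei, and the mitochondrial share had medians of 7.04% in high nuclei and 8.14% in failing nuclei. Doublets were not removed in the main values, and Scrublet marked 0 barcodes on its own threshold; of the 161 barcodes with the highest doublet scores, 2 were high nuclei and 14 failing ones.

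The open-chromatin sequences below carry the pattern the accessibility data turned on, and they are printed for the AP-1 motif. AP-1 is the family of Fos and Jun transcription factor dimers, which bind the letters TGANTCA (a palindrome, so the search reads both strands). Each sequence is the 300 bases at the centre of a peak on the plus strand of GRCm38 (mm10), credited to RefSeq, with every AP-1 match in capitals. The first 3 come from the 6 peaks with the greatest excess of counts in the high nuclei, in an intron of Kalrn at chr16:34485002-34485301, in an intergenic region 21280 bases from the start of Plcb1 at chr2:134764637-134764936, and in an intron of Gm20125 at chr10:17034958-17035257. The other two are the peaks with a match among the 7 peaks over gate genes past 1.5-fold, of which 6 were higher and 5 held none, in introns of Fgf7 at chr2:126065549-126065848 and of Tnfsf11 at chr14:78305789-78306088.
Kalrn intron: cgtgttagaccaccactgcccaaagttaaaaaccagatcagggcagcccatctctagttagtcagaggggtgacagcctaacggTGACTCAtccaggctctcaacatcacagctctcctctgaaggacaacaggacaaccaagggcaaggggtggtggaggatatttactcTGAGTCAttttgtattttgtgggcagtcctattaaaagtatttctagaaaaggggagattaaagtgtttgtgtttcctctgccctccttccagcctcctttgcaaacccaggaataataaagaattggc
Plcb1 side: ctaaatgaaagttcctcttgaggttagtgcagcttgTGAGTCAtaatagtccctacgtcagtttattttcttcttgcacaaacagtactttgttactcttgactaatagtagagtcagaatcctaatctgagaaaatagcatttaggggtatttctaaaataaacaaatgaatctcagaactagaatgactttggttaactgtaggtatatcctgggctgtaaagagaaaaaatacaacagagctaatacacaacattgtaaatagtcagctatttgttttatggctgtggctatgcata
Gm20125 intron: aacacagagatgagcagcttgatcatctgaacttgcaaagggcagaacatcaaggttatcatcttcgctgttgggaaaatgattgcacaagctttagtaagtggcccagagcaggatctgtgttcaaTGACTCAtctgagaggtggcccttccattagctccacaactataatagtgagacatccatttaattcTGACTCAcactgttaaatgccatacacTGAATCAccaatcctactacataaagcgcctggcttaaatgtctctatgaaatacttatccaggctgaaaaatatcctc
Fgf7 intron: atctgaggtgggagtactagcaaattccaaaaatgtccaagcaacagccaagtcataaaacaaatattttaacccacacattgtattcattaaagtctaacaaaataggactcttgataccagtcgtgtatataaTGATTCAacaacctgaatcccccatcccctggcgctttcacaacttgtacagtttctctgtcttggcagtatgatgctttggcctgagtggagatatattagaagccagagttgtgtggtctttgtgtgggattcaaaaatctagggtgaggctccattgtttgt
Tnfsf11 intron: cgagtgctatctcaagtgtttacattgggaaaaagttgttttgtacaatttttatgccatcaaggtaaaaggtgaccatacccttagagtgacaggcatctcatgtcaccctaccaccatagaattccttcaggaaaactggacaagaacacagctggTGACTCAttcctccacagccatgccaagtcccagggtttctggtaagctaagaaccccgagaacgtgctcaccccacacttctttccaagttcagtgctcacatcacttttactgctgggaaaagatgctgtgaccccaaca

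For contrast, the next 3 windows are the peaks with the greatest deficit in high nuclei among those that hold a match to the glucocorticoid receptor motif, chosen after the values were seen. That motif, a pair of inverted repeats, is in capitals. The windows lie in an intron of Gm29232 at chr2:118258767-118259066, in an intergenic region 1684 bases from the start of Gm49303 at chr14:47958185-47958484, and in an intron of Fbxw8 at chr5:118143631-118143930. A match is a description of the letters and not evidence of a bound site.
Gm29232 intron: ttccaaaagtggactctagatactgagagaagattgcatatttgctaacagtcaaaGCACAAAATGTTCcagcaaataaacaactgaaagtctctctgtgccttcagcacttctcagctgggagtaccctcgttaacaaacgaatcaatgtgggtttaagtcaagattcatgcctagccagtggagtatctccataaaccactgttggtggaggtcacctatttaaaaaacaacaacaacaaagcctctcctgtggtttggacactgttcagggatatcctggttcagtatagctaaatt
Gm49303 side: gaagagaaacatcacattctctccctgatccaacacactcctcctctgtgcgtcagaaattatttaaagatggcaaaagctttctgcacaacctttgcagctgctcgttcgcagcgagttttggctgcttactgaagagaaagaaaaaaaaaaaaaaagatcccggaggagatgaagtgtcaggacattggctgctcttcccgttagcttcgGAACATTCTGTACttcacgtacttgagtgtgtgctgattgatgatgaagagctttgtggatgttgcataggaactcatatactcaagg
Fbxw8 intron: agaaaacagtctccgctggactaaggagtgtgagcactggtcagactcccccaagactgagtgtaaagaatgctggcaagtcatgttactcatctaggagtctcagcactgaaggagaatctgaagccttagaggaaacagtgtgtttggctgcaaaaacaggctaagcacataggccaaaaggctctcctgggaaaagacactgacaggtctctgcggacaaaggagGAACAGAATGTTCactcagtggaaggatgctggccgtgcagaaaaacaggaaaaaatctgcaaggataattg

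Gm16685 (ENSMUSG00000097804, chr3:7612705-7690001, plus strand) had 702 UMIs in the high nuclei and 55 in the failing nuclei, or 1438 and 84.0 CPM (UMIs scaled to a total of 1000000 non-mitochondrial UMIs). The other nuclei of the preparation, neither reticular nor blood-gated, had 80.2 CPM, and the 92 blood-gated nuclei had 32.7 CPM. Nrg3 (ENSMUSG00000041014, chr14:38368952-39473088, minus strand) had 584 CPM in high and 22.9 CPM in failing nuclei. Fgf7 (ENSMUSG00000027208, chr2:126034658-126091185, plus strand) had 408 CPM in high and 59.5 CPM in failing nuclei. Tnfsf11 (ENSMUSG00000022015, chr14:78277445-78308043, minus strand) had 1016 CPM in high and 134 CPM in failing nuclei. In other nuclei these 3 genes had 12.6, 14.9 and 61.9 CPM, below the failing reticular nuclei in each case.

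The 4 genes did not mark the same nuclei throughout. Of the 190 high nuclei, 61 had UMIs of 1 of the 4 genes, 64 of 2, 50 of 3 and 15 of all 4. Tnfsf11 alone brought in 27 nuclei and Gm16685 alone 23, against 7 for Nrg3 and 4 for Fgf7. As a further description, with no weight as support because the 4 genes were put together from these same data, each gene was left out of its own gate and the nuclei were chosen on the other 3. Gm16685 had 1196 CPM in nuclei chosen on the other 3 and 427 CPM in the reticular rest, a log2 ratio of 1.49 (1.28 to 1.70). Nrg3 gave 457 and 143 CPM, a log2 ratio of 1.68 (1.33 to 2.04), and Fgf7 gave 359 and 114 CPM, a log2 ratio of 1.65 (1.26 to 2.06). Tnfsf11 gave 718 and 432 CPM, a smaller log2 ratio of 0.74 (0.49 to 0.98). Chosen nuclei were deeper in each case, with median UMIs from 1882 to 1929 in chosen nuclei and from 1331 to 1378 in the rest.

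**Figure D1:**
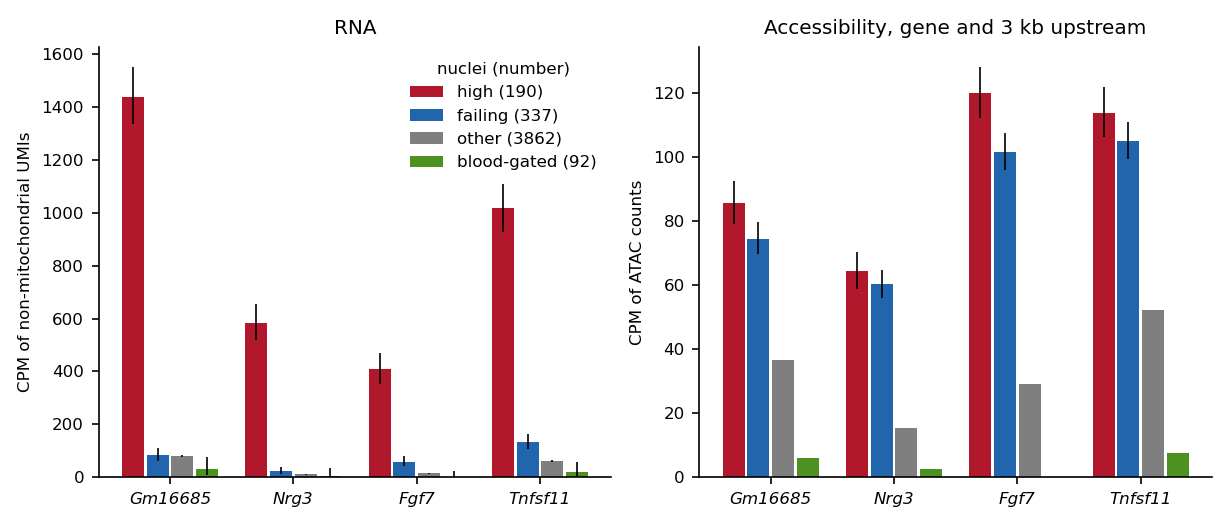
Levels of the 4 genes of the second gate in RNA (left, CPM of non-mitochondrial UMIs) and in accessibility (right, ATAC CPM over the gene and 3 kb upstream), for high, failing reticular, other and blood-gated nuclei. Bars start at 0 and lines are exact 95% counting intervals where drawn; RNA of Gm16685 was 1438 CPM in high and 84.0 CPM in failing nuclei, as chosen by the gate, and its accessibility was 85.6 and 74.6 ATAC CPM.

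The chromatin at the 4 genes was read from the ATAC library, which the choice did not use; the RNA ratios of these genes are fixed by the gate and are not set against it. Over the gene and 3 kb upstream, Gm16685 had 85.6 ATAC CPM (peak counts scaled to a total of 1000000) in high and 74.6 in failing nuclei, a log2 ratio of 0.20 (0.05 to 0.35). Nrg3 had 64.4 in high and 60.4 in failing nuclei, 0.09 (-0.08 to 0.26), and Tnfsf11 had 113.9 in high and 105.2 in failing nuclei, 0.12 (-0.01 to 0.24). Fgf7 had 119.9 in high and 101.7 in failing nuclei, 0.24 (0.11 to 0.36). All 4 were less accessible outside the reticular nuclei, at 36.6, 15.6, 52.2 and 29.3 ATAC CPM in other nuclei for Gm16685, Nrg3, Tnfsf11 and Fgf7. None of the 4 reached a 1.5-fold difference between high and failing nuclei, the limit at which 3.37% of 20210 genes were called higher and 5.17% lower.

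Single peaks at Fgf7 and Tnfsf11 differed more than the genes as a whole. Over the 4 genes, 6 of 30 peaks with at least 50 counts were at least 1.5-fold higher in high nuclei and 1 lower, against 14.1% higher and 12.9% lower of all 66432 such peaks, so the count alone is not far from the background. Of 8 Fgf7 peaks with at least 50 counts, 3 were at least 1.5-fold higher in high nuclei. The peak 3176 bases upstream of the Fgf7 start, at chr2:126031065-126031899, had 84 counts in 35 high nuclei and 66 counts in 30 failing nuclei, or 11.2 and 5.46 ATAC CPM, a log2 ratio of 1.03 (0.55 to 1.52). The intronic peak at chr2:126062630-126063539 had 47 counts in high and 27 in failing nuclei (1.48, 0.77 to 2.23). The intronic Fgf7 peak whose sequence is printed above had 83 and 79 counts (0.76, 0.29 to 1.22). The peak over the Fgf7 start itself gave 0.23 (-0.11 to 0.56). Of 8 Tnfsf11 peaks, 2 were at least 1.5-fold higher, both in introns near the gene's start: chr14:78304006-78304842, 3619 bases from it, had 33 counts in high and 31 in failing nuclei (0.78, 0.02 to 1.53), and the printed peak at chr14:78305582-78306296, 2104 bases from it, had 70 and 69 (0.71, 0.21 to 1.21). Of 10 Nrg3 peaks, 1 was higher (0.91, 0.23 to 1.59) and 1 lower (-0.64, -1.14 to -0.18), and of 4 Gm16685 peaks none reached 1.5-fold. The Gm16685 start lies in a peak that also overlaps Il7, the interleukin for B-cell precursors, so that peak cannot be assigned to either gene. Il7 RNA had 39 UMIs in high and 47 in failing nuclei, 79.9 and 71.7 CPM, a log2 ratio of 0.16 (-0.50 to 0.80); whether counting used strand is not stated in the sources used here.

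The summed share of the 4 reticular gate genes was alike on both sides, with medians of 0.766% in high and 0.738% in failing nuclei. Detection differed most for Lepr, found in 91.1% of high and 69.7% of failing nuclei. Cxcl12 was found in 91.1 and 84.6%, Kitl in 94.2 and 94.1% and Ebf3 in 79.5 and 77.2%. The part of depth in detection was not tested. Lepr had 1641 CPM in high and 1369 CPM in failing nuclei, Cxcl12 2593 and 2466 CPM, Kitl 2880 and 2709 CPM, and Ebf3 1540 and 1740 CPM. Genes outside the gate that mark these cells placed both groups apart from the rest of the preparation: Lpl, the lipoprotein lipase, had 2061 CPM in high and 1409 CPM in failing nuclei against 145 CPM in other nuclei, and Adipoq (adiponectin) had 249.9, 146.5 and 11.8 CPM in the same order. Foxc1, a transcription factor of reticular cells, had 196.6, 227.4 and 36.2 CPM.

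Outside the 8 gate genes, 162 of 3570 genes with at least 50 UMIs were at least 2-fold higher in high nuclei (4.54%) and 34 were at least 2-fold lower (0.952%). These are calls of size only. The median over all 3570 genes was itself 0.13 on the log2 scale, and the abundant nuclear RNA Gm42418, which overlaps ribosomal RNA sequence, took 218036 CPM in high and 269825 CPM in failing nuclei. With Gm42418, Col1a1, Col1a2 and Sparc left out of the totals the median was 0.01 and the calls were 109 higher and 57 lower, so shifts near 0.1 carry no direction.

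NF-kB pathway genes held the most calls of the signalling lists. NF-kB is the transcription factor family that interleukin 1, TNF and RANK signals switch on, and several of its targets are its own inhibitors. Of 22 listed genes 11 had enough UMIs, and 5 of these were called higher and 0 lower, against 4.54% and 0.952% of all 3570 genes. All 11 were positive, and their median log2 ratio was 0.77, against 0.13 over all genes. The list was chosen with earlier results of these data known. Nfkb1, the p105/p50 subunit, had 438 UMIs in 118 high nuclei and 198 UMIs in 115 failing nuclei, or 897 and 302 CPM, a log2 ratio of 1.57 (1.32 to 1.82). Nfkbia, the IkBa inhibitor, had 377 CPM in high and 165 CPM in failing nuclei (1.19, 0.84 to 1.55). Tnip1, which restrains the pathway with A20, had 127 and 44.3 CPM (1.51, 0.86 to 2.21), and Birc3, the cIAP2 ubiquitin ligase, had 137 and 51.9 CPM (1.39, 0.79 to 2.04). Relb, the subunit of the alternative branch, had 105 and 44.3 CPM (1.23, 0.55 to 1.95). Nfkb2, Rela and Rel were between 0.69 and 0.77 and below the limit. In nuclei with Y-linked counts and no Xist, described below, Nfkb1 gave 0.77, Tnip1 0.70, Nfkbia 0.67 and Relb -0.03, so none of these 4 reached 2-fold there, while Birc3 gave at least 1.04 over 14 alternatives.

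The 250 bases before the Nfkbia start are printed because they hold a match to the kappaB motif, the element NF-kB binds, in capitals (chr12:55492648-55492897, minus strand, GRCm38.p6, RefSeq).
Nfkbia promoter: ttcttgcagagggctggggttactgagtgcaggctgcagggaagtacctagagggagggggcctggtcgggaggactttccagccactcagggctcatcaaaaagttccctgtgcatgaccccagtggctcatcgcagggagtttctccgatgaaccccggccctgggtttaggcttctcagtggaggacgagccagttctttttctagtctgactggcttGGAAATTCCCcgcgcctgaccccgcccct
Of 17 genes of the list with a promoter in RefSeq 2 held a match, Nfkbia and Cyld. Over all tested genes, 1 of 125 promoters of RNA-higher genes and 10 of 2818 promoters in all held one (0.8% and 0.355%).

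Receptors of inflammatory cytokines and their kinases were higher in part. Of 16 listed genes with enough UMIs, 4 were called higher and 0 lower, with a median of 0.41. Il1r1, the signalling receptor of interleukin 1, had 305 UMIs in 113 high nuclei and 168 UMIs in 101 failing nuclei, or 625 and 256 CPM (1.28, 1.01 to 1.56). Il17ra, the interleukin 17 receptor, had 156 CPM in high and 56.5 CPM in failing nuclei, the kinase Jak2 had 244 and 85.5 CPM, and Stat5a 133 and 47.3 CPM. The gp130 receptor family did not reach the limit: Il6st gave 0.33 and Lifr 0.16. Of 25 listed cytokines and chemokines 7 had enough UMIs and 4 were called higher. Ccl2, the monocyte chemoattractant, had 75 UMIs in high and 20 in failing nuclei, 154 and 30.5 CPM (2.31, 1.6 to 3.12); in nuclei with Y-linked counts and no Xist it gave -0.07. In the other 3, 1 nucleus gave most of the UMIs: 85 of the 93 Cxcl9 UMIs of high nuclei, 42 of 61 for Cxcl10 and 27 of 44 for Ptgs2. Without the leading nucleus of each side the log2 ratios were 0.43 for Cxcl9, 2.02 for Cxcl10 and 1.38 for Ptgs2. Fewer than 50 UMIs of each gene then remained, so none of these 3 kept its call. Interferon response genes had a median of 0.06 with 0 of 6 called, although the single gene Iigp1, an interferon-induced GTPase, had 301 and 118 CPM in 33 nuclei on each side.

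Eya1, a transcriptional coactivator with phosphatase activity, was the highest of the genes with at least 200 UMIs. It had 215 UMIs in 73 high nuclei and 79 UMIs in 51 failing nuclei, or 440 and 121 CPM, a log2 ratio of 1.86 (1.49 to 2.26), and no single high nucleus gave more than 16 of them. Over 14 alternatives its ratio lay between 1.18 and 2.32, lowest in nuclei with Y-linked counts and no Xist. After Nfkb1 came Rhoq, a small GTPase of insulin-driven glucose transport, with 305 CPM in high and 119 CPM in failing nuclei. Ahcyl2 (328 and 128 CPM), Man1a, a Golgi mannosidase (1071 and 421 CPM), and Mapkapk2, the p38 target kinase that stabilises cytokine mRNAs (270 and 107 CPM), followed. Both a histone methyltransferase and a demethylase were among them, Nsd3 at 471 and 188 CPM and the H3K27 demethylase Kdm6b at 453 and 183 CPM. Neat1, the paraspeckle RNA, had 733 and 333 CPM, of which 72 of 358 high UMIs lay in 1 nucleus, and without the leading nucleus of each side its log2 ratio was 0.96. Of the remaining named genes, Ier5, Med13, Samd4, Klhl29, Ifrd1, Vim, Vasn and Cmip lay between 1.12 and 1.26.

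**Figure D2:**
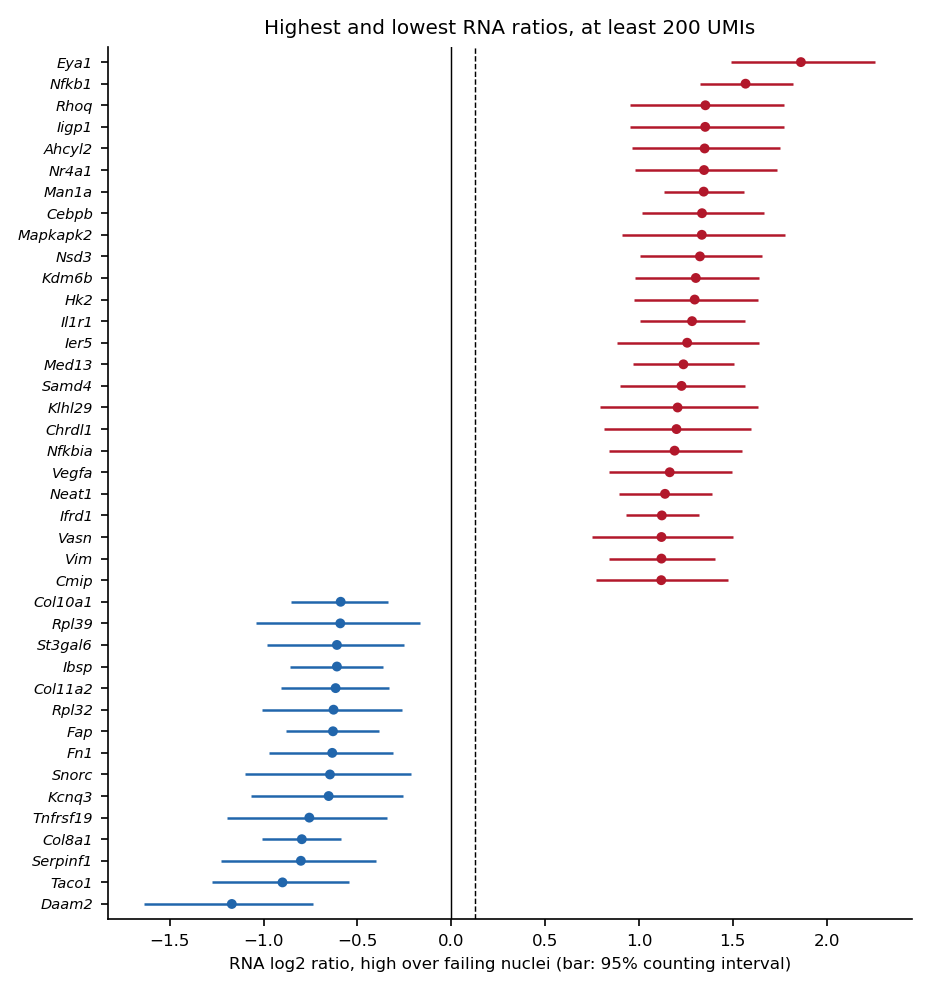
RNA log2 ratio, high over failing reticular nuclei, of the named genes with at least 200 UMIs, with exact 95% counting intervals; points right of 0 were higher in high nuclei. Eya1 stood at 1.86 and Nfkb1 at 1.57 at the top, and Daam2 at -1.17 was the only one of the 15 lowest past 2-fold.

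Genes of the reticular and pre-adipocyte programme differed by member. Of 12 reticular identity genes with enough UMIs, 3 were called higher and 0 lower, with a median of 0.18. These were Chrdl1, a BMP antagonist, at 309 CPM in high and 134 CPM in failing nuclei (1.2, 0.82 to 1.6), Grem1, another BMP antagonist, at 252 and 101 CPM (1.32, 0.88 to 1.78), and Esm1, a secreted proteoglycan, at 354 and 171 CPM (1.05, 0.70 to 1.41). Ebf1 gave 0.09. Of 10 adipogenic genes 1 was called higher, Cebpb, an early factor of the programme, at 471 and 186 CPM (1.34, 1.02 to 1.67). Adipoq gave 0.77 (0.37 to 1.17) and Lpl 0.55 (0.42 to 0.68), both under 2-fold, while Pparg gave -0.28 (-0.62 to 0.06).

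Niche factors as a list did not stand apart. Of 10 with enough UMIs 0 were called and the median was 0.03. Vcam1, the adhesion molecule that retains blood cells, had 1342 CPM in high and 893 CPM in failing nuclei (0.59, 0.42 to 0.75), Angpt1, the Tie2 ligand, had 598 and 432 CPM (0.47, 0.23 to 0.71), and Csf1, the macrophage growth factor, had 235.5 and 267.1 CPM (-0.18, -0.53 to 0.17). Vegfa, the vessel growth factor, was called higher at 428 and 191 CPM (1.16, 0.84 to 1.5). Igfbp5, an insulin-like growth factor binding protein, had 3935 and 2517 CPM (0.65, 0.55 to 0.74).

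The receptors of the secreted products were mostly low or alike. Erbb4, the Nrg3 receptor, had 1 UMI in all high nuclei together and 5 in all failing nuclei, and Erbb2 13 and 18. Of 2 ErbB genes with enough UMIs, Errfi1, the feedback inhibitor of EGFR, was called higher at 1829 CPM in high and 911 CPM in failing nuclei (1.005, 0.85 to 1.16), and Egfr gave 0.68 (0.43 to 0.93). In the FGF pathway 0 of 8 were called: Fgfr2, whose epithelial splice form binds Fgf7, gave -0.08. Tnfrsf11b, the decoy receptor of Tnfsf11, had 2 UMIs in high and 5 in failing nuclei, and the receptor Tnfrsf11a had 2 and 0, so no ratio is given. Of 7 osteoclast regulators with enough UMIs, 2 were called higher, Ptgs2, described above, and Sfrp1, a secreted Wnt antagonist, at 79.9 and 38.2 CPM. Vdr, the vitamin D receptor that induces Tnfsf11, had 246 and 130 CPM (0.92, 0.51 to 1.34), and Pth1r, the parathyroid hormone receptor, had 117 and 195 CPM (-0.74, -1.22 to -0.28).

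Hexokinase and other single genes of several lists were among those called. Hk2 (hexokinase 2) had 455 CPM in high and 185 CPM in failing nuclei (1.30, 0.97 to 1.63), and Pfkfb3, which speeds glycolysis, had 100 and 41.2 CPM, 2 of 4 genes of the hypoxia and glycolysis list with enough UMIs. Cdkn1a, the p21 cell cycle inhibitor, had 199 and 88.5 CPM, Sgk1, a glucocorticoid-induced kinase, 176 and 85.5 CPM, Notch1 88.1 and 35.1 CPM, and the basement membrane protein Nid1 182 and 77.8 CPM. Of 8 nuclear receptors with enough UMIs 1 was called higher, Ppard, with 61 UMIs in high and 33 in failing nuclei (1.30). Nr3c1, the glucocorticoid receptor, had 154 CPM in high and 130 CPM in failing nuclei (0.24, -0.22 to 0.71), below the limit. In the glucocorticoid list 1 of 8 was called higher, Sgk1, with a median of 0.39.

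The matrix list was mixed. Of 22 matrix genes with enough UMIs 1 was called higher, Nid1, and 0 lower, with a median of 0.16. Col4a1, the basement membrane collagen, had 862 CPM in high and 504 CPM in failing nuclei (0.78, 0.56 to 0.99), while Lum, the fibrillar proteoglycan lumican, had 111 and 180 CPM (-0.70, -1.20 to -0.23). The calls in signalling lists beside those of the gate genes are read against 4.54% of all 3570 genes called higher. The counts are small, and for the lists that follow too small to set a list apart from that share. Of 10 Notch and hedgehog genes 1 was called, Notch1, with a median of 0.33; of 12 BMP and TGF-beta genes 0, with a median of 0.27 and the receptor Tgfbr1 highest at 113 and 71.7 CPM (0.65, 0.06 to 1.24); and of 8 Wnt genes 0, with a median of 0.26. Axon guidance genes had a median of -0.08 with 0 of 12 called, from the netrin receptor Unc5b at 55.3 and 108 CPM (-0.95, -1.67 to -0.31) to the ephrin Efna5 at 428 and 296 CPM (0.53, 0.24 to 0.82). Neural adhesion genes, of which 4 had enough UMIs, had a median of -0.11, with Negr1 at 1317 and 926.5 CPM (0.51, 0.35 to 0.67). In the p53 and stress list 1 of 7 was called, Cdkn1a, with Mdm2, the p53 ligase, at 123 and 68.7 CPM (0.83, 0.26 to 1.43), and in the clock list 1 of 6, Cry2, at 147.5 and 65.6 CPM.

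Immediate-early genes, which stimuli and tissue dissociation induce within minutes, were mostly positive and mostly below the limit. Of 21 with enough UMIs 2 were called higher and 0 lower, 19 were positive and the median was 0.46. Nr4a1 had 354 CPM in high and 139 CPM in failing nuclei (1.35, 0.98 to 1.73) and Nr4a3 145 and 48.8 CPM (1.56, 0.95 to 2.22). Among the AP-1 subunits, Fosl2 had 156 and 80.9 CPM (0.94, 0.42 to 1.48), Junb 901 and 600 CPM (0.59, 0.39 to 0.79), Jund 774 and 521 CPM (0.57, 0.36 to 0.79), Fosb 1133 and 832 CPM (0.45, 0.27 to 0.62), Jun 629 and 488 CPM (0.37, 0.13 to 0.60) and Fos 717 and 615 CPM (0.22, 0.01 to 0.43). Egr1, usually induced with them, gave 0.03. The part of dissociation in these values was not tested.

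**Figure D3:**
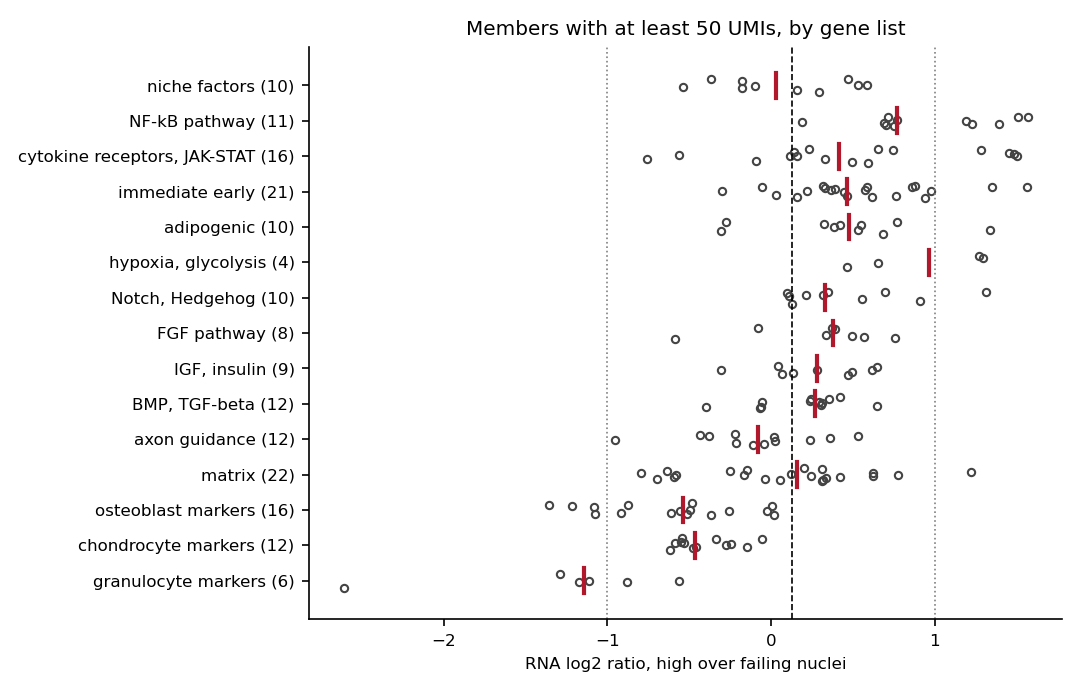
RNA log2 ratios, high over failing reticular nuclei, of genes with at least 50 UMIs in each list, with the list median marked and the median over all 3570 genes drawn for reference. The NF-kB list had a median of 0.77 and no negative member, and the osteoblast list had a median of -0.54.

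Osteoblast and granulocyte markers held the lower calls among the lists, to be read against 34 of all 3570 genes called lower (0.952%). Of 16 osteoblast genes with enough UMIs 0 were called higher and 4 lower, with a median of -0.54. Alpl, the mineralising phosphatase, had 86.0 CPM in high and 202 CPM in failing nuclei (-1.22, -1.77 to -0.72), Dmp1, an osteocyte matrix protein, 84.0 and 217 CPM (-1.36, -1.91 to -0.86), Smpd3 90.1 and 192 CPM and Mef2c 79.9 and 169 CPM. Their summed level was 24790 CPM in high and 33413 CPM in failing nuclei, and 73677 CPM in the free RNA of barcodes without nuclei. Runx2, the osteoblast lineage factor, did not move with them (0.00, -0.17 to 0.18). For Dmp1, 45 of the 142 UMIs of failing nuclei lay in 1 nucleus, and without the leading nucleus of each side its log2 ratio was -0.92. None of 12 chondrocyte genes was positive, 0 were called, and their sum was 3656 CPM in high, 4718 CPM in failing nuclei and 16000 CPM in free RNA. Of 6 granulocyte genes 4 were called lower, with sums of 311 CPM in high, 720 CPM in failing nuclei and 1248 CPM in free RNA. For each of these 4, 1 failing nucleus held a large part of the UMIs: 34 of 61 for Ltf, 27 of 59 for Ngp, 19 of 47 for Mpo and 23 of 92 for S100a8. Without the leading nucleus of each side the log2 ratios were -1.90 for Ltf, -0.90 for S100a8, -0.77 for Mpo and -0.38 for Ngp. Fewer than 50 Ltf UMIs then remained and the other genes were under 2-fold, so none of the 4 kept its call. The 5 genes of the blood gate summed to 59.4 CPM in high, 144 CPM in failing and 5584 CPM in blood-gated nuclei, lymphoid genes to 10.2 and 42.7 CPM in high and failing nuclei, and the B-cell genes Pax5 and Cd79b were at 0 in high nuclei. Cycling genes summed to 135 CPM in high and 237 CPM in failing nuclei, macrophage genes to 242 and 269 CPM and mural genes to 205 and 235 CPM. Endothelial genes summed to 113 and 88.5 CPM and periosteal fibroblast genes to 154 and 104 CPM. No cycling gene had enough UMIs to be called. Enough were found for 2 macrophage, 2 mural, 1 endothelial and 1 periosteal fibroblast gene, with 0 called. The part of free RNA in the lower genes was not tested.

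Of the 15 genes with at least 200 UMIs that were lowest in high nuclei, 1 passed 2-fold. Daam2, a formin of Wnt signalling, had 57 UMIs in 37 high nuclei and 173 UMIs in 105 failing nuclei, or 117 and 264 CPM (-1.17, -1.64 to -0.74). Col8a1, a network-forming collagen, had 547 and 951 CPM (-0.80, -1.01 to -0.59), and Fap, the fibroblast activation protein, had 412 and 638 CPM (-0.63, -0.88 to -0.39). Taco1, Serpinf1, Tnfrsf19, Kcnq3, Snorc and Fn1 lay between -0.90 and -0.63. The osteoblast and chondrocyte genes Ibsp (420 and 641 CPM) and Col10a1 (385 and 580 CPM) and the ribosomal protein genes Rpl32 and Rpl39 completed the set with Col11a2 and St3gal6.

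Accessibility followed the RNA weakly. Of 161 RNA-higher genes with enough peak counts, 122 had a positive accessibility ratio, against 1874 of 3545 genes with enough of both. Their median accessibility ratio was 0.13 on the log2 scale, against 0.01 over all. Of the 161, 1 was at least 1.5-fold higher, against 14 of the 3545 genes. Il1r1 had 287.9 ATAC CPM in high and 229.8 in failing nuclei (0.33), Nfkb1 149.4 and 121.8 (0.29), Errfi1 84.9 and 85.5 (-0.01) and Igfbp5 74.1 and 80.0 (-0.11). The genes with the greatest accessibility ratios had too few UMIs to be read in RNA. Krt79, a keratin, had 22.1 ATAC CPM in high and 5.79 in failing nuclei (1.93, 1.52 to 2.36), Liph, a phospholipase, 25.7 and 7.61 (1.75, 1.39 to 2.13), Bdkrb2, the bradykinin receptor, 29.5 and 12.2 (1.27, 0.96 to 1.58), and Procr, the protein C receptor, 17.6 and 7.28 (1.27, 0.87 to 1.68). Gm12339, Gm17227, Gm21954 and Hsh2d completed the 8 highest. Lowest was Gm21738, with 3.73 ATAC CPM in high and 15.3 in failing nuclei (-2.02, -2.67 to -1.46). Gm33838, Gm36287, Gm10801, Gm10800, Gm27166, Ppp1r16b and Ric3 completed the 8 lowest, between -1.875 and -1.33. Blood-gated nuclei had 199 ATAC CPM at Ppp1r16b and 202.4 at Gm36287, against 14.7 and 31.0 in failing nuclei. Gm33838, Gm10801 and Gm10800 were also higher in blood-gated than in failing nuclei, while Gm21738, Gm27166 and Ric3 were lower. The part of blood chromatin in these ratios was not tested.

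Among single peaks, 3369 of 66432 with at least 50 counts were at least 2-fold higher in high nuclei (5.07%) and 3110 at least 2-fold lower (4.68%). The peak in Liph at chr16:21975896-21976791 led, with 103 counts in 31 high nuclei and 12 counts in 6 failing nuclei, or 13.7 and 0.992 ATAC CPM, a log2 ratio of 3.74 (2.92 to 4.79). Next was the printed Kalrn intron at chr16:34484707-34485597, with 98 counts in 37 high nuclei and 31 in 12 failing nuclei (2.33, 1.75 to 2.98). A peak 4785 bases from the start of Nnmt, a nicotinamide methyltransferase, had 109 and 35 counts (2.31), an intergenic peak at chr13:71667985-71668923 had 108 and 35 (2.30), the Plcb1-side peak 81 and 27 (2.25) and the Gm20125 intron 83 and 28 (2.24). At the low end, an intergenic peak at chr5:138881519-138882428 had 14 counts in 7 high nuclei and 137 counts in 50 failing nuclei (-2.56, -3.51 to -1.81), and an intronic peak of Tgfb2, a TGF-beta ligand, had 14 and 106 counts (-2.19).

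The AP-1 letters separated these ends. Among the 6 highest peaks the windows of 5 held a match, the one near Nnmt being the exception, and among the 6 lowest 0 did. Over all, 47.8% of the 3369 higher peaks held TGANTCA in their central 300 bases, against 5.73% of 3108 lower peaks and 15.2% of all 66413 peaks searched. In the 52163 of these peaks over 1000 bases from any gene start, the shares were 48.5% of higher, 5.68% of lower and 17.7% of all. Within those distal peaks the share climbed with the ratio, from 4.86% (3.49 to 6.56) of 823 peaks below -1.5. It was 11.3% between -0.25 and 0, 23.1% between 0.25 and 0.5 and 54.9% (51.4 to 58.5) of 781 peaks at 1.5 or more. With at least 100 counts, and with peaks near gene starts kept, the shares were 53.3% of higher, 3.91% of lower and 13.9% of all peaks. The sets differed little in base composition, with a median GC of 47.7% in higher, 47.0% in lower and 50% in all peaks, and both called sets lay away from gene starts, with 5.82% and 4.83% within 1000 bases of one, against 21.5% of all. Among 17 motifs searched none of the rest had such a spread in percentage points. RUNX letters (TGTGGTT) were in 12.2% of higher, 18.8% of lower and 12.8% of all peaks, TEAD letters (GGAATG) in 19.5, 24.2 and 19.5%, and C/EBP in 16.9, 19.4 and 15.9%.

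KappaB and receptor matches were rarer and ran in opposite directions. The kappaB motif was in 1.51% of higher, 0.290% of lower and 0.777% of all peaks. The glucocorticoid receptor motif was in 0.416% of higher, 3.41% of lower and 0.923% of all peaks, and its share ran from 4.37% (3.08 to 6.0) of peaks below -1.5 to 0.384% (0.08 to 1.12) at 1.5 or more. Several steroid hormone receptors bind these letters, so the motif does not name 1 of them.

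**Figure D4:**
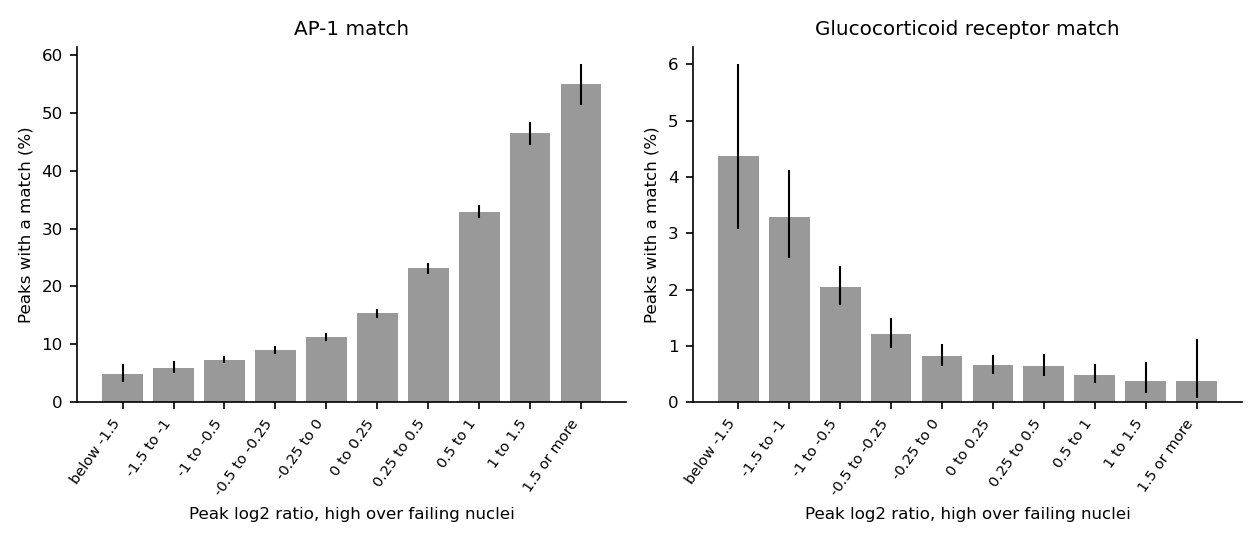
Share of peaks whose central 300 bases hold a motif match, by bin of the peak's accessibility log2 ratio, high over failing reticular nuclei, with exact 95% counting intervals. AP-1 ran from 4.86% in the lowest bin to 54.9% in the highest, and the glucocorticoid receptor motif from 4.37% to 0.384%.

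Read per nucleus, the same chromatin varied widely inside both groups. The share of a nucleus's distal peak counts (over 1000 bases from any gene start) that fell in the 9245 peaks with an AP-1 match had a median of 18.2% in high nuclei (quartiles 13.2 and 23.0%) and 13.4% in failing nuclei (12.4 and 16.2%). Of the 190 high nuclei, 140 (73.7%) were above the median of the failing ones, and the groups overlapped. Other nuclei of the preparation had a median of 15% and quartiles of 12.2 and 20.8%, and blood-gated nuclei a median of 10.3%, so high AP-1 accessibility was not confined to reticular nuclei. At a share of 20% or more stood 78 high nuclei (41.1%), 42 failing nuclei (12.5%) and 27.7% of the other nuclei. These 9245 peaks were chosen for their letters and not for their ratio.

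The share climbed with the UMIs of the 4 genes. Its median was 13.1% in the 197 nuclei with 0 UMIs, 13.9% in 101 with 1, 13.9% in 95 with 2 to 3, 16.2% in 67 with 4 to 7 and 21.8% in 67 with 8 or more. RNA depth climbed as well, with median UMIs of 1171, 1312, 1853, 1976 and 3101 in the same 5 sets, and the part of depth was not tested. Each of the 4 genes was also read in turn, whatever the others showed, so these sets of nuclei overlap. Nuclei with at least 2 UMIs had a median of 21.2% for Gm16685, 18.1% for Nrg3, 18.6% for Fgf7 and 17.6% for Tnfsf11. In nuclei with 0 the medians were 13.5, 13.7, 13.7 and 13.5%. Turned round, 11 of 69 reticular nuclei with an AP-1 share under 12% were high (15.9%, 8.24 to 26.7%) and 26 of 34 with 24% or more (76.5%, 58.8 to 89.2%). Median RNA depth was 1231 UMIs in the first of these sets and 1550 in the second. In the bins between, of 2 percentage points each, it was 1425, 1625 and 1244 UMIs up to 18% and 1925, 1825 and 1687 UMIs from 18% to 24%. The part of depth was not tested here either.

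**Figure D5:**
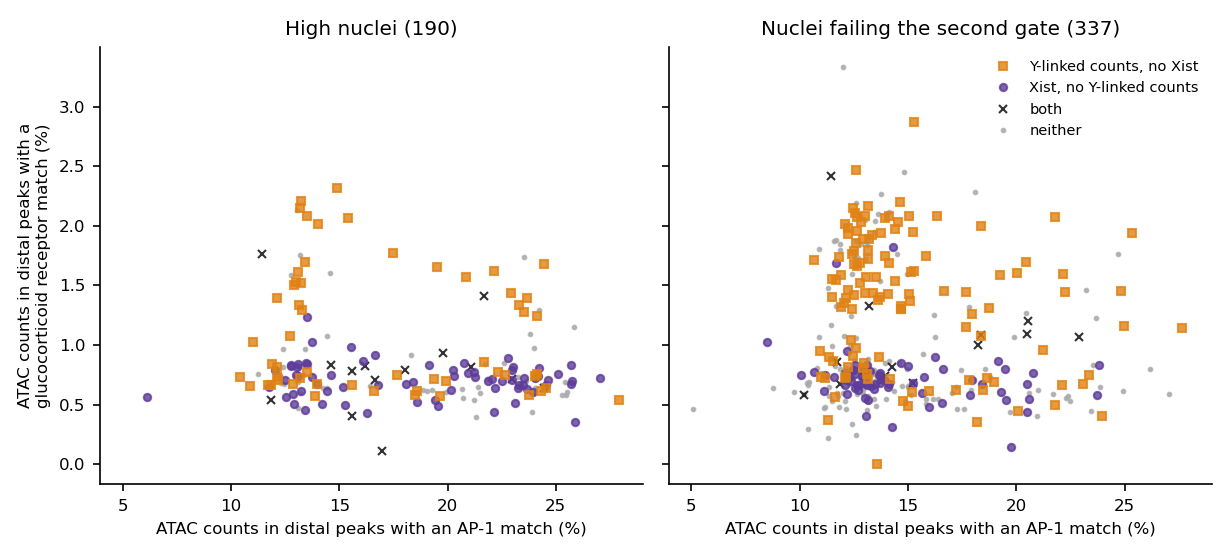
Each point is 1 nucleus, high ones in the left panel and failing ones in the right, coloured by detection of Y-linked counts and Xist, with the share of its distal peak counts in AP-1 peaks on one axis and in glucocorticoid receptor peaks on the other, both in percent. High nuclei extended to AP-1 shares of 20% and more (78 of 190, against 42 of 337 failing), and 84 of the 337 failing nuclei and 22 of the 190 high ones had a receptor share of 1.5% or more.

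The receptor measure followed Y-linked counts and Xist, which mark nuclei of male and female mice in the pooled preparation. The share in the 552 distal peaks with that motif had a median of 0.732% in high nuclei (quartiles 0.636 and 0.862%) and 0.804% in failing nuclei (0.645 and 1.48%). A share of 1.5% or more was found in 22 high nuclei (11.6%), 84 failing nuclei (24.9%) and 2.20% of other nuclei, and 4 high and 6 failing nuclei had both this and an AP-1 share of 20% or more. Of 173 reticular nuclei with Y-linked counts and no Xist, the RNA of the inactive X chromosome, 69 had such a share (39.9%), against 2 of 139 with Xist and no Y-linked counts (1.44%). Y-linked counts were UMIs of 4 Y-linked genes or counts in 16 peaks of chromosome Y, while Xist was read from RNA alone. In the printed Gm49303-side window's peak, high and failing nuclei with Y-linked counts had 3.49 and 11.9 ATAC CPM, and high and failing nuclei with Xist 0.692 and 0.822. At the Fbxw8 peak the same 4 sets had 6.98, 17.6, 0 and 3.29 ATAC CPM, with 16, 84, 0 and 8 counts.

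High nuclei were a larger share of the nuclei with Xist. They were 71 of 139 nuclei with Xist and no Y-linked counts (51.1%, 42.5 to 59.7%) and 56 of 173 with Y-linked counts and no Xist (32.4%, 25.5 to 39.9%). A further 28 nuclei had both (14 high) and 187 neither (49 high). Detection depends on depth, and the medians were 1978 UMIs in nuclei with Xist and 1657 in nuclei with Y-linked counts. Median peak counts were 38684 and 40665 in the same order. RNA depth was greater in high nuclei and bears on the 2 marks unequally, since Y-linked counts were also read from peaks. The part of depth in this difference was not tested. Xist had 492 CPM in high and 330 CPM in failing nuclei, while the Y-linked Uty had 67.6 and 67.2 CPM.

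The AP-1 pattern was present within each set. Among nuclei with Y-linked counts only, high nuclei had a median AP-1 share of 15.1% and failing nuclei 13.7%, and among nuclei with Xist only 19.4 and 13.4%. In peaks called within the first set, AP-1 letters were in 35.2% of higher, 8.17% of lower and 12.7% of all peaks, and within the second in 43.2, 4.52 and 13.1%. Receptor matches were in 0.841% of higher, 4.89% of lower and 1.15% of all peaks in the first set, against 0.948, 0.856 and 0.582% in nuclei with Xist. In RNA, 53 genes were called higher within the nuclei with Y-linked counts, of which 19 were among the 162, and 114 within the nuclei with Xist, of which 49 were.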

How the data were processed

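RNA and ATAC libraries of the same nuclei were analysed, 1 of each. The authors processed the reads with Cell Ranger ARC 2.0.0 on mm10 and deposited raw counts, UMIs for 32293 genes and counts in 203545 peaks, over 728634 barcodes; a separate list of peak intervals was not used. Peaks were called on the whole library, and free RNA was not removed in the main values. The members and the gene lists were chosen with earlier results of these data known. Counts were summed over the nuclei of each group and scaled to CPM. A log2 ratio is the high nuclei over the failing nuclei with 0.5 counts added to each side, and its interval is the exact conditional (Clopper-Pearson) one at 95%. Levels have exact Poisson intervals and shares exact binomial (Clopper-Pearson) ones, and all of these cover counting error only. Called genes were at least 2-fold apart with at least 50 UMIs over both groups, genes by accessibility at least 1.5-fold with at least 50 counts in peaks over the gene and 3 kb upstream, and peaks at least 2-fold with at least 50 counts.

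Named genes were those of both gates, the 25 highest and 15 lowest by ratio with at least 200 UMIs, up to 4 members of each list with the largest absolute ratio among those with at least 50 UMIs, the 8 highest and 8 lowest by accessibility with at least 200 counts, and defining markers of other cell types. Named peaks were the 6 highest and 6 lowest with at least 100 counts and those over the genes of the second gate past 1.5-fold. Csf1, Ebf1, Egr1, Erbb2, Erbb4, Fgfr2, Fos, Fosb, Foxc1, Il6st, Il7, Jun, Junb, Jund, Lifr, Nfkb2, Nr3c1, Pparg, Pth1r, Rel, Rela, Tnfrsf11a and Tnfrsf11b fell outside that rule and were chosen after their values were seen, as were the peaks over the starts of Gm16685 and Fgf7 and the 3 peaks with a receptor motif. Motifs were searched in the 300 bases at each peak centre in GRCm38.p6 (RefSeq), whose chromosomes held 203502 of the peaks; the rest lay on other contigs. Doublet scores came from Scrublet in scanpy 1.11.5. Python 3.11.15, numpy 2.4.6, scipy 1.17.1 and pandas 2.3.3 were used, and the counting was tested on simulated data. The 15 alternatives planned concerned mitochondrial share, depth, doublets, the gate, scaling, free RNA, weighting, thinning and minimums, and 4 more were added after the data were seen.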

Additional observations from a re-analysis of the deposited data

How the results depend on the processing

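No value here has a replicate, so a change of processing is set against counting error alone. Of 128 comparisons of a main result with an alternative, 78 stayed within that range (counts within 1.5 times) and 50 moved. The number of high nuclei, 190 in the main values, was 116 with at most 10% and 74 with more than 10% mitochondrial UMIs, 86 with at least 2000 UMIs, 101 with the stricter second gate (0.2% and at least 4 UMIs), 120 with 1000 to 3000 UMIs, 56 with Y-linked counts and no Xist and 71 with Xist and no Y-linked counts. RNA-higher genes, 162 in the main values, were 63 above 10% mitochondrial UMIs, 32 after thinning to 500 UMIs, 337 with a minimum of 20 and 34 with a minimum of 200 UMIs, 62 with 1000 to 3000 UMIs and 53 in nuclei with Y-linked counts. RNA-lower genes, 34, were 8 above 10% mitochondrial UMIs, 109 with the stricter gate, 57 without Gm42418 and 3 matrix genes, 8 after thinning, 273 and 1 with minimums of 20 and 200, 21 with 1000 to 3000 UMIs, and 13 and 17 in nuclei with Y-linked counts and with Xist. Genes more accessible, 682, were 1099 with the stricter gate and 1219 with nuclei weighted equally, and less accessible ones, 1045, were 630 within 2 kb of the start. Higher peaks, 3369, were 1311 above 10% mitochondrial UMIs, 2128 with at least 2000 UMIs, 5054 with the stricter gate, 1220 with at least 100 counts, 951 with Y-linked counts and 1582 with Xist. Lower peaks, 3110, were 2038 and 1285 at most and above 10% mitochondrial UMIs, 1048 with at least 2000 UMIs, 5880 with the stricter gate, 4850 with equal weights, 717 with at least 100 counts, 2067 with 1000 to 3000 UMIs, 1310 with Y-linked counts and 818 with Xist.

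Accessibility of Gm16685, 0.20 on the log2 scale, was 0.004 with equal weights, 0.037 with Y-linked counts and 0.021 with Xist. That of Nrg3, 0.09, was -0.096 with equal weights, 0.299 within 2 kb of the start and -0.237 with Y-linked counts. Fgf7, 0.24, gave 0.517 with at least 2000 UMIs and 0.410 with equal weights, and Tnfsf11, 0.12, gave 0.436 with at least 2000 UMIs and 0.361 with Xist. Among called genes, the RNA ratios that changed sign were Ccl2 (-0.067) and Relb (-0.034) with Y-linked counts, Cxcl9 above 10% mitochondrial UMIs (-2.539), with the stricter gate (-2.199) and with Xist (-0.827), Cxcl10 with the stricter gate (-1.330) and with Xist (-0.090), Ptgs2 with at most 10% mitochondrial UMIs (-0.053) and with the stricter gate (-0.508), Cry2 (-0.021) and Ppard (-0.021) after thinning, Ngp above 10% mitochondrial UMIs (0.165) and S100a8 with 1000 to 3000 UMIs (0.323). Ratios under 2-fold that the text prints also changed sign in places, among them Mdm2 (to -0.490), Ibsp (to 0.141), Kcnq3 (to 0.445), Efna5 (to -0.008) and Lepr (to -0.023). The cause of these moves was not tested, but fewer nuclei, a shallower depth or a stricter gate enters by construction.

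AP-1 matches were in 35.2 to 53.3% of higher, 3.91 to 8.17% of lower and 12.7 to 15.2% of all peaks over 11 alternatives, and the ratio of summed AP-1 shares stayed between 0.228 and 0.405 on the log2 scale over 10. The NF-kB median stayed between 0.65 and 1.47 over 14. The alternatives by depth between 1000 and 3000 UMIs, by Y-linked counts and by Xist, and without the leading nucleus of each side, were chosen after the data were seen. No paired analysis was possible because there is 1 library of each kind and no result comes from a test. Depth limits the RNA: receptors such as Erbb4 and Tnfrsf11b had too few UMIs to compare.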
